A study of Homo sapiens with 4 samples.

Results

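The potassium channel genes are the 95 genes whose symbols consist of KCN, 1 or 2 letters and a number, out of 28058 genes counted. Names of antisense and overlapping transcripts were left out. They were measured by poly(A) RNA sequencing in 4 libraries from cells labelled SH-SY5Y, a human neuroblastoma cell line whose tissue is given as neurons. The control group is 2 untreated samples. The SWT group is 2 samples given shock wave treatment, a train of 300 pressure pulses at 0.08 mJ/mm2 and 3 Hz, applied to flasks at 7 cm from the applicator in a water bath at 37 °C. RNA was isolated at 6 h. No transgene or other agent is named for either group, and the culture medium was the same. The series design text speaks of exosomes instead, so how the cells were exposed is uncertain. The labels do not say whether replicates are separate cultures. P-values therefore reflect only the spread between the deposited samples, which could be technical. For each gene that spread was estimated partly from all genes tested.

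Potassium channels let potassium ions leave or enter a cell down their gradient and so set the resting membrane potential, end action potentials and control firing rate. Voltage-gated channels open on depolarization, calcium- and sodium-activated channels open when those ions accumulate inside the cell, inward rectifiers pass current most readily near rest, and two-pore-domain channels carry a background leak. Voltage-gated channels and inward rectifiers are assembled from 4 pore subunits, often of different genes, and many channels also bind auxiliary subunits that change their gating or transport. In sympathetic neurons, the lineage of neuroblastoma, the M current carried by KCNQ channels restrains repetitive firing.

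Total counts were 9888263 to 11686808 per library, so a count of 0 in a single library allows up to 0.257 to 0.303 CPM, a count scaled to its library's total, and a count of 0 in all 4 together allows up to 0.0693 CPM. These limits cover counting error only. The label neuron was checked against markers: 9 of 18 noradrenergic identity genes had 0 counts in all 4 libraries, among them PHOX2A, TH and DBH, while 12 of 17 mesenchymal genes were at 10 CPM or more in every library. Of the noradrenergic genes, HAND2 and GATA2 reached 10 CPM in every library. Summed over 27 heart muscle genes, control replicate 2 stood at 407 CPM and SWT replicate 1 at 48.9 CPM, against 13.9 CPM in control replicate 1 and 16.9 CPM in SWT replicate 2. Endothelial, glial and leukocyte lists summed to 7.54 to 53.7 CPM in each library. In these bulk samples fewer cells of a type and less RNA per cell cannot be told apart.

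Potassium channel transcripts came mostly from a few genes. Of the 95 genes, 42 had 0 counts in all 4 libraries, 31 had counts but stayed under 1 CPM in every library, 6 reached 1 CPM in some libraries, 11 were at 1 CPM or more in all without reaching 10 CPM in all, and 5 were at 10 CPM or more in all. KCNJ3 and KCNN4 together held 59.3% of the 9767 counts on the whole family, and the 6 genes with the most counts held 82.4%. The family summed to 232 CPM in control replicate 1, 223 CPM in control replicate 2, 224 CPM in SWT replicate 1 and 223 CPM in SWT replicate 2. The 4 libraries were thus nearly alike in this sum, with control replicate 1 the highest.

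**Figure D1:**
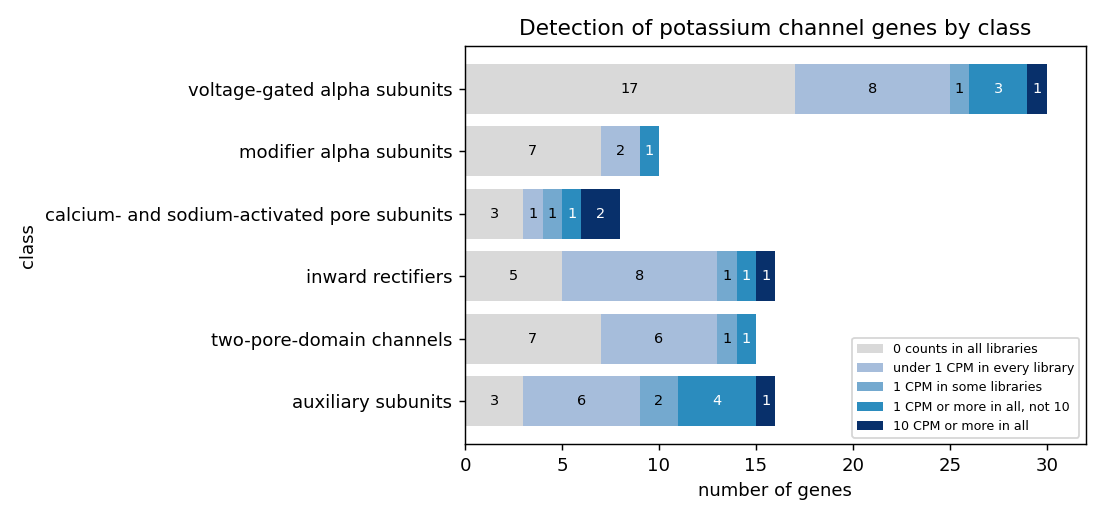
Number of potassium channel genes (x axis) in each class (y axis), split by level over the 4 libraries, from 0 counts in all libraries (grey) to 10 CPM or more in all (darkest). The voltage-gated class has the most members, 30, of which 17 had 0 counts, and 4 of the 6 classes hold at least 1 gene at 10 CPM or more.

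Among calcium- and sodium-activated pore genes, the calcium-activated KCNN4 led the family once length was taken into account. KCNN4 (chromosome 19, 43766533 to 43781261) encodes the intermediate-conductance channel known from red blood cells, lymphocytes and proliferating fibroblasts. It stood at 61.4 and 63.1 CPM in the controls and at 67.1 and 64.4 CPM in the SWT libraries. Both SWT libraries lay above both controls, the nearest pair at 63.1 and 64.4 CPM. Its level per length was 28.5 ± 1.08 CPM per kilobase of the longest annotated transcript (SD over all 4 libraries, both groups), and 18.8 CPM per kilobase of the union of its exons, the highest of the family on both scales. The small-conductance relatives of KCNN4 carried few reads: KCNN1 and KCNN2 had 0 counts in all libraries. KCNN3 had 8 and 10 counts in the controls and 2 and 18 in the SWT libraries, so its SWT replicates were the 2 extremes.

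KCNMA1 (chromosome 10, 76869601 to 77638369), the pore gene of the large-conductance BK channel, which responds to both voltage and calcium, stood at 14.1 and 13.2 CPM in the controls and at 11.8 and 12.1 CPM in the SWT libraries. Both SWT libraries were below both controls. KCNT2 (chromosome 1, 196225779 to 196609225), a sodium-activated channel gene, stood at 9.38 and 9.09 CPM in the controls and at 9.32 and 7.38 CPM in the SWT libraries, where only SWT replicate 2 lay apart. Its paralog KCNT1, the better known neuronal sodium-activated channel gene, had 0 counts in all 4 libraries. KCNU1, a sperm channel gene related to KCNMA1, had 3 counts in all.

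Inward rectifiers were represented almost wholly by KCNJ3 (chromosome 2, 154698299 to 154858352), a subunit of G protein-gated channels that slow the heart and inhibit neurons when muscarinic, opioid or GABA-B receptors are engaged. KCNJ3 had the highest CPM of the family, 80.0 and 68.2 CPM in the controls and 64.1 and 66.3 CPM in the SWT libraries. Control replicate 1 stood above the other 3 libraries, which lay close together. Per kilobase it ranked second, at 13.9 ± 1.41 CPM per kilobase (SD over all 4 libraries). Its range of 12.8 to 15.9 did not meet that of KCNN4, 27.4 to 29.9. KCNJ14, a strong inward rectifier gene, was at 4.30 and 4.44 CPM in the controls and 4.17 and 5.15 CPM in the SWT libraries. Of the other 14 genes of the class, 5 had 0 counts in all libraries and KCNJ15 alone reached 1 CPM, in SWT replicate 2. KCNJ2, the classical rectifier gene of muscle, had 2 to 6 counts per library, and KCNJ8 and KCNJ11, the pore genes of ATP-sensitive channels, had 4 counts and 1 count in all.

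**Figure D2:**
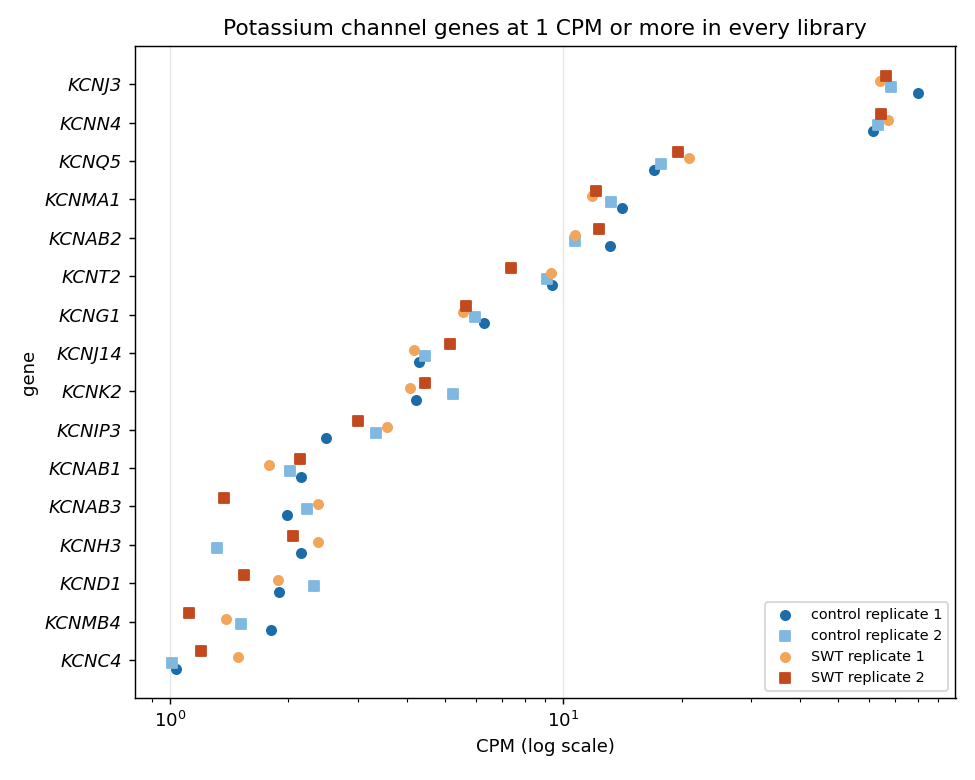
Level in CPM (x axis, log scale) of the 16 potassium channel genes at 1 CPM or more in every library (y axis), with 1 point for each library. KCNJ3 and KCNN4 lie above 60 CPM in every library, KCNQ5, KCNMA1 and KCNAB2 between 10 and 21 CPM, and the other 11 below 10 CPM.

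Voltage-gated pore genes were the largest class, and 17 of 30 had 0 counts in all libraries. KCNQ5 (chromosome 6, 72621792 to 73198851), a subunit of M-current channels, was the main one detected, at 17.0 and 17.7 CPM in the controls and 20.9 and 19.6 CPM in the SWT libraries. Both SWT libraries lay above both controls. Its M-current partner KCNQ3 had 6 to 9 counts per library, and KCNQ1, of heart and epithelium, had 0.

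Other voltage-gated genes were present at low level. KCND1, a gene of transient A-type current, stood at 1.89 and 2.32 CPM in the controls and 1.88 and 1.54 CPM in the SWT libraries. KCNH3, of the brain ether-a-go-go-like group, stood at 2.15 and 1.31 CPM in the controls and 2.38 and 2.06 CPM in the SWT libraries. KCNC4, a fast-gating gene, had 12 and 10 counts in the controls and 15 and 14 in the SWT libraries. The 8 shaker-related KCNA genes had 4 counts between them. KCNH2, the ERG channel gene, whose current has been recorded in neuroblastoma cells, had 6 and 9 counts in the controls and 5 and 4 in the SWT libraries. Of 15 channel genes typical of excitable neurons, 11 had 0 counts in all libraries, and the list summed to 1.29 to 2.48 CPM per library.

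The two-pore-domain class was led by KCNK2 (chromosome 1, 215005775 to 215237093), which encodes TREK-1, a leak channel opened by membrane stretch, heat and fatty acids. KCNK2 stood at 4.22 and 5.25 CPM in the controls and 4.07 and 4.46 CPM in the SWT libraries, with overlapping groups. The other stretch-activated channel genes of the class, KCNK4 and KCNK10, had 0 counts in all libraries. KCNK3, the acid-sensitive leak channel gene, had 13 and 9 counts in the controls and 12 and 22 in the SWT libraries. In CPM, both SWT libraries lay above both controls, the nearest pair at 1.12 and 1.19 CPM. No other gene of this class passed 4 counts in a library.

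Auxiliary subunits and the pore subunits they serve were not found in proportion. KCNAB2 (chromosome 1, 5991466 to 6101193), which encodes a cytoplasmic beta subunit of KCNA channels, stood at 13.2 and 10.7 CPM in the controls and 10.7 and 12.4 CPM in the SWT libraries. The 3 KCNAB genes summed to 3.87 to 4.37 CPM per kilobase of the longest transcript, and the 8 KCNA genes to 0 to 0.0722. Per kilobase of exon union, as means over the 4 libraries, these sums were 1.96 and 0.0374 CPM. KCNAB2 and KCNAB3 share exon positions with other genes, so the KCNAB sum is uncertain. KCNG1, a modifier subunit that forms channels only together with other voltage-gated subunits, stood at 6.28 and 5.96 CPM in the controls and 5.55 and 5.66 CPM in the SWT libraries. The 10 modifier genes summed to 1.64 to 1.81 CPM per kilobase, and 7 of them had 0 counts in all libraries. KCNJ3, whose product needs another subunit of its group to form channels at the cell surface, showed the widest gap. Its 3 possible partners, KCNJ5, KCNJ6 and KCNJ9, had 6 counts between them in all 4 libraries, and 0 in SWT replicate 2.

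For other channels both sides were detected. The KCNIP genes, calcium-binding partners of KCND channels, summed to 0.880 to 2.07 CPM per kilobase and the KCND genes to 0.348 to 0.537. KCNIP3, whose product is also known as the transcriptional repressor DREAM, had the most counts of this group, 29 and 33 counts in the controls and 36 and 35 in the SWT libraries. The beta subunit genes of the BK channel summed to 0.417 to 0.553 CPM per kilobase, beside 0.978 to 1.17 for KCNMA1, both on the longest transcript. That order turned with the choice of length: per kilobase of exon union the beta subunit genes summed to 0.452 CPM and KCNMA1 stood at 0.359 CPM, as means over the 4 libraries. Of these, KCNMB4, the neuronal form, had 21 and 15 counts in the controls and 14 and 13 in the SWT libraries, KCNMB3 had 9 to 18, and KCNMB1, the smooth muscle form, had 0. The 5 KCNE genes, single-pass subunits of KCNQ and other channels, had 7 to 15 counts per library together. KCNE5 shares exon positions with ACSL4 on the same strand, so its counts are uncertain.

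**Figure D3:**
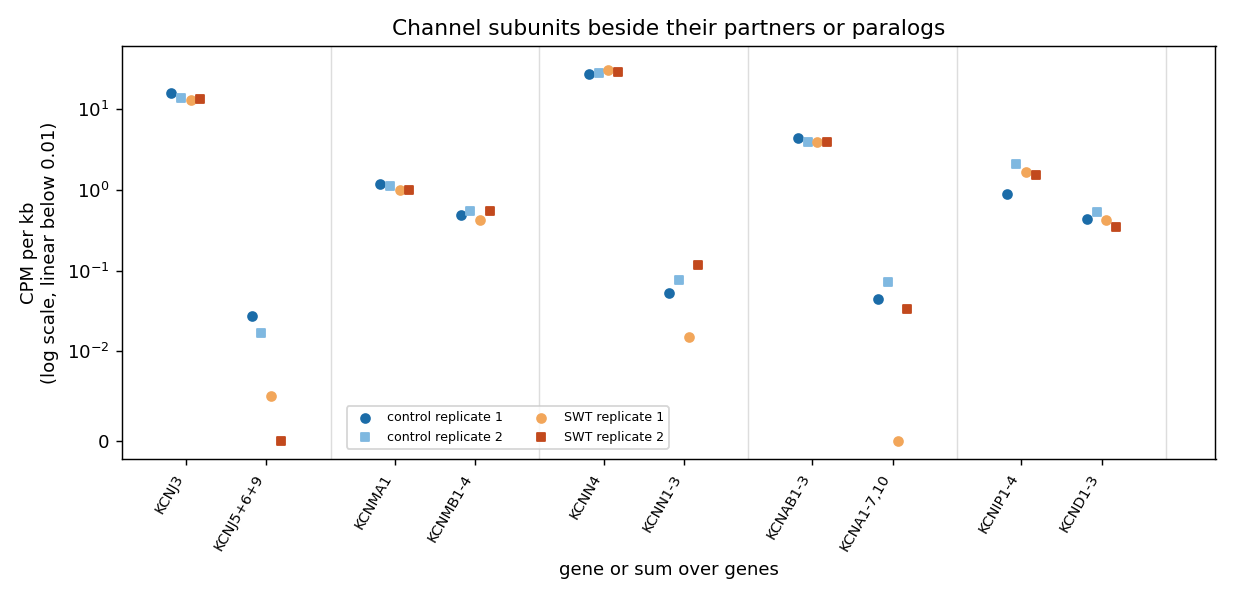
Levels in CPM per kilobase (y axis, log scale, linear below 0.01) of a channel gene or the sum over a group of genes, beside the genes their products assemble with or are paralogs of (KCNN4 beside KCNN1 to KCNN3), with 1 point for each library. KCNJ3 at 12.8 to 15.9 stands beside partners under 0.03, whereas KCNMA1 and its beta subunits lie closer together. Lengths are those of the longest transcript, and on exon union KCNMA1, at 0.359, stood below the beta subunit sum of 0.452.

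Compared per kilobase of the longest transcript, the order below the leading pair was KCNQ5 (2.55 to 3.13 over the 4 libraries) and KCNAB2 (2.51 to 3.08), whose ranges overlapped. KCNG1 (1.49 to 1.69), KCNT2 (1.21 to 1.54) and KCNK2 (1.20 to 1.55) followed, each overlapping the next. KCNJ14 (1.04 to 1.29) and KCNMA1 (0.978 to 1.17) overlapped as well, and KCNIP3, KCNAB3 and KCNIP2 completed the first 12. Part of this order changed per kilobase of exon union, where KCNQ5 stood at 2.49 CPM and KCNAB2 at 1.23 CPM, next to KCNT2 at 1.24 CPM. On that scale KCNH3 (0.455) and KCNE5 (0.400) were among the first 12, and KCNIP3 (0.394) and KCNMA1 (0.359) were not. KCNMA1, at 12.8 CPM over all libraries, was above KCNAB2, KCNG1, KCNT2, KCNK2 and KCNJ14 by mean CPM but below them per kilobase of the longest transcript.

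The comparison of SWT with control asks which channel genes differed after shock waves. No potassium channel gene passed edgeR's quasi-likelihood test with Benjamini-Hochberg adjustment. Only 20 of the 95 passed the low-count filter and could be tested, and a gene high in just 1 group can pass that filter. Of these, 0 were called higher and 0 lower, against a background of 0% in each direction over all 12399 genes tested. DESeq2, limma-voom and limma on the deposited log2 values also called 0 of the family. Each of them called 0 of all genes tested as well, in both directions. At an unadjusted p under 0.05, 1 of 20 passed, against 5.77% of all genes. Log2 fold changes were above 0 for 9 and below 0 for 11, against 49.7% above and 50.3% below over all genes, and the median was -0.067 against -0.00078. The sign of the family median was not stable: it was 0.099 without control replicate 2 and 0.040 without SWT replicate 1, and over 53 channel genes it was 0.080 with DESeq2 and 0.099 with edgeR and no filter. Libraries did not overlap between the groups for 4 genes with SWT higher (background 17.3%) and 5 with SWT lower (background 18%). The 95% interval lay within 0.5 of 0 on the log2 scale for 6 genes and within 1 for 13, and for the other 7 it reached beyond 1, so that a change of that size was not bounded.

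KCNJ3 was the gene with the smallest p in the family. Its log2 fold change, SWT minus control, was -0.19 (SE 0.078, edgeR unadjusted p = 0.0280, adjusted p = 0.838), from 74.1 ± 8.33 CPM in control to 65.2 ± 1.57 CPM in SWT (SD, n = 2 each). The size rested on control replicate 1: without that library the log2 fold change was -0.063 (adjusted p = 0.949). Without control replicate 2 it was -0.29 and passed (edgeR adjusted p = 0.0192), the only call in the family under any alternative, where 0.764% of all 12697 genes tested were called lower. In that fit the lone control library was assumed to vary like the SWT libraries.

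KCNQ5, the M-current gene, followed at 0.22 on the log2 scale (SE 0.11, edgeR unadjusted p = 0.0670, adjusted p = 0.843), from 17.4 ± 0.449 to 20.3 ± 0.910 CPM (SD, n = 2 each). Its value stayed between 0.18 and 0.27 with each library left out in turn. KCNN4 stood at 0.079 (SE 0.070, adjusted p = 0.918), with a 95% interval of -0.068 to 0.23. KCNMA1 stood at -0.20 (SE 0.13, adjusted p = 0.893), from 13.7 ± 0.625 to 11.9 ± 0.205 CPM (SD, n = 2 each), and ranged from -0.24 to -0.15 with each library left out in turn. Libraries differed along GC content, with a Spearman rho of -0.401 between GC content and SWT minus control across 6321 genes, which are not independent replicates. Replicates of a group differed along GC content to a like extent: rho was -0.483 for control replicate 2 minus replicate 1 and 0.381 for SWT replicate 2 minus replicate 1. With each library's trend on GC content and transcript length removed, KCNJ3 stood at -0.22, KCNMA1 at -0.24, KCNQ5 at 0.19 and KCNN4 at 0.13.

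**Figure D4:**
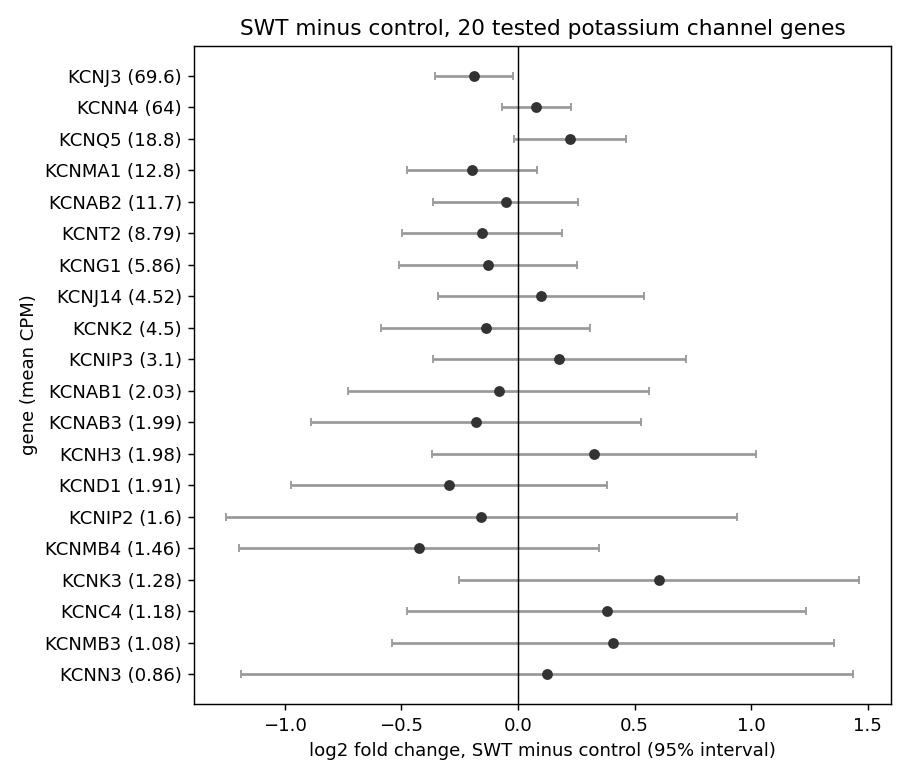
Log2 fold change, SWT minus control (x axis), for the 20 tested potassium channel genes (y axis, ordered by mean CPM, given in parentheses). Points are edgeR estimates and bars their approximate 95% intervals, which cross 0 for every gene but KCNJ3, at -0.19, and widen towards the lower levels.

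The other genes of this comparison had wider errors. Among values above 0 were KCNK3 at 0.60 (SE 0.41), KCNMB3 at 0.41, KCNC4 at 0.38 and KCNH3 at 0.33. For KCNH3 the value was 0.75 when control replicate 1 was left out and 0.039 when control replicate 2 was. KCNK3 stood at 0.22 and KCNMB3 at -0.064 without SWT replicate 2, and KCNC4 at 0.23 without SWT replicate 1. Among values below 0 were KCNMB4 at -0.42 (SE 0.37), KCND1 at -0.30, KCNT2 at -0.15 and KCNG1 at -0.13. KCNMB4 stood at -0.28 without control replicate 1 and -0.26 without SWT replicate 2. KCND1 stood at -0.15 without control replicate 2 and -0.15 without SWT replicate 2. KCNT2 stood at 0.013 without SWT replicate 2. The leak channel gene KCNK2 stood at -0.14 (SE 0.21), at 0.021 without control replicate 2. Their edgeR adjusted p-values ran from 0.893 to 0.955. KCNAB2 stood at -0.053 (SE 0.15), and at 0.11 without control replicate 1.

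Some channel genes are also genes of heart muscle, and the heart muscle sum differed between libraries as given above. KCNIP2, the KCND partner required for the transient outward current of heart muscle, had 6 and 29 counts in the controls and 16 and 16 in the SWT libraries. Control replicate 2, with the highest heart muscle sum, was the highest at 2.93 CPM, and control replicate 1, with the lowest, was the lowest at 0.516 CPM. SWT replicates 1 and 2 stood at 1.59 and 1.37 CPM, with heart muscle sums of 48.9 and 16.9 CPM. SWT replicate 2 thus lay above control replicate 1 in KCNIP2, at 16 against 6 counts, though its sum was near the 13.9 CPM of that library. Counts this low leave the size of that gap uncertain. The log2 fold change of KCNIP2 was -0.16 (SE 0.52, edgeR adjusted p = 0.988) and became 1.49 without control replicate 2. The part of heart muscle transcripts in these values was not tested.

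KCNJ3, which is abundant in the atrium, did not follow the heart muscle sum: it was highest in control replicate 1 (80.0 CPM), where that sum was 13.9 CPM. KCNJ5, its atrial partner, had 1 count in each control library and 0 in both SWT libraries. KCNA5, of the atrial ultrarapid current, had 2 counts, both in control replicate 2. KCNK3 was lowest in control replicate 2 at 0.909 CPM. Of 18 channel genes known from heart, 14 stayed under 1 CPM in every library, among them KCNQ1 and KCNE1, both with 0 counts.

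**Figure D5:**
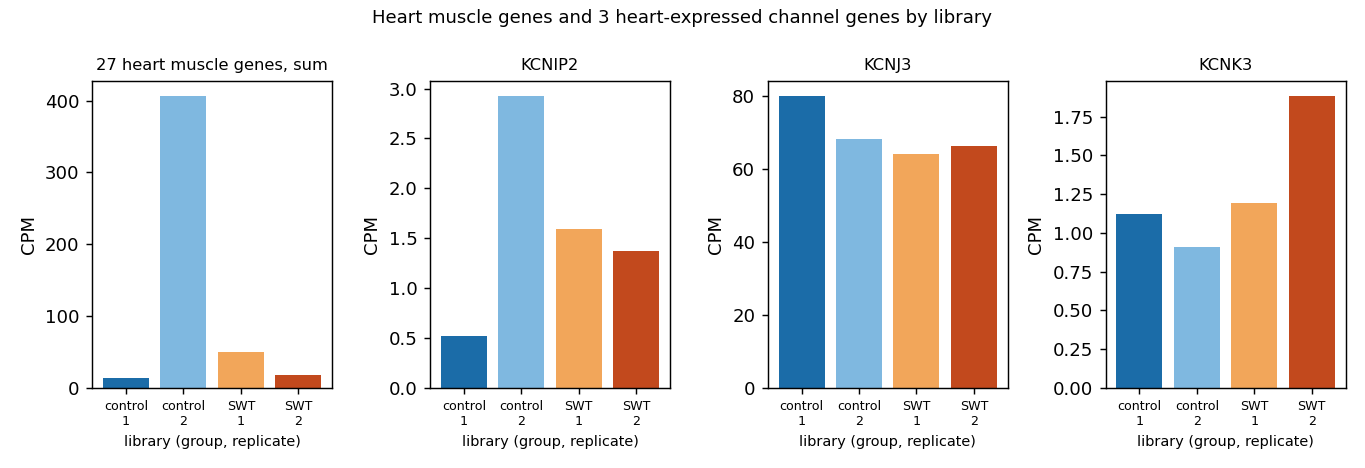
CPM (y axes, each from 0) in each library (x axis) for the sum over 27 heart muscle genes and for KCNIP2, KCNJ3 and KCNK3. The heart muscle sum and KCNIP2 are both highest in control replicate 2 (407 and 2.93 CPM), while KCNJ3 is highest in control replicate 1 and KCNK3 in SWT replicate 2.

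Genes that work with potassium channels did not pass the test either. Of 20 partner proteins, 9 were tested, 5 lay above 0, 4 below, and 0 were called. The smallest p-values were those of NEDD4L, a ubiquitin ligase that removes channels from the surface, at 0.14 on the log2 scale (SE 0.063, edgeR adjusted p = 0.843), and of DLG1, a scaffold of KCNA and KCNJ channels, at 0.092 (adjusted p = 0.888). The sulfonylurea receptor genes ABCC8 and ABCC9 were not among those tested. Of 14 sodium-potassium pump genes, 4 were tested, with the beta subunit gene ATP1B3 at 0.069, which became 0.0015 when control replicate 1 was left out and 0.14 when control replicate 2 was. Of 6 cotransporters that move chloride with potassium, 3 were tested, with SLC12A2, which loads cells with chloride, at 0.20 (SE 0.088, edgeR adjusted p = 0.843) and SLC12A4 at 0.011, which turned below 0 in 2 of the 4 fits that left out a library. Of the 4 HCN genes, of the hyperpolarization-activated current, HCN2 alone was tested, at -0.11 (SE 0.11), from 258 and 245 counts in the controls and 204 and 269 in the SWT libraries. Its value was -0.030 without control replicate 2 and -0.023 without SWT replicate 1, and -0.19 to -0.21 without either of the other libraries.

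Exon positions of 10 of the 20 tested genes are shared with another annotated gene, and the strand setting of the counting was not given in the sources used here. KCNAB2 overlaps NPHP4, KCNH3 overlaps MCRS1 and KCNMB3 overlaps PIK3CA on the opposite strand, and KCNJ14 overlaps GRWD1 and KCNAB3 overlaps AC104581.2, a protein-coding gene, on the same strand, so single values of these genes are uncertain. KCNMA1, KCNQ5 and KCNIP2 overlap noncoding transcripts on the opposite strand. KCNN4 and KCNJ3 have no such overlap.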

How the data were processed

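The authors deposited raw counts per gene symbol and a second table of log2 values for 17151 genes, 53 of them potassium channel genes; the differences in that table are shrunken, so it served only as an alternative. Trimmomatic 0.36, FastQC 0.11.5, STAR 2.5.3a, HTSeq, DESeq2 and hg38 are named without a role, per the submitters' processing notes; the library kit was stranded, per the labels' protocols. The count test was that of edgeR 4.0.16 under R 4.3.3 (TMM, filterByExpr with the group, quasi-likelihood F-test, Benjamini-Hochberg over 12399 genes, threshold 0.05). The variance of each gene was moderated towards a trend over all genes tested, with a prior of 15.0 degrees of freedom. The common coefficient of variation between replicates, beyond counting error, was 4.32%. CPM uses TMM-scaled totals. Standard errors divide the size of the log2 fold change by the root of the F statistic, and 95% intervals are approximate. Lengths, coordinates and overlaps are those of GENCODE 29 (GRCh38, the assembly of hg38), matched by symbol for all 95 genes. The fit was also run on counts simulated from its own dispersion trend. Those counts held no GC trend, so that run does not vouch for the fit on these libraries. Alternatives used DESeq2 1.42.0 and limma 3.58.1.

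Members and lists were chosen with earlier results of these data known. Named were the 5 smallest p-values in each direction, the 12 highest levels by CPM and per kilobase, the highest of each class, tested genes of the heart, M-current and neuron lists, and up to 2 genes of each other list. A rule for genes 3-fold apart in 1 library with 20 counts named none. Other genes were named after their values were seen, and some that the rule covers are not reported here. The deviations of same-numbered libraries correlated at -0.235, which gave no sign that the numbers pair samples. The negative value means that control replicate 1 deviated more like SWT replicate 2, and control replicate 2 more like SWT replicate 1. The main test used no block, and whether samples pair in that way was not tested.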

Additional observations from a re-analysis of the deposited data

How the results depend on the processing

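Counts of called potassium channel genes were 0 in both directions under every alternative fitted except without control replicate 2, where KCNJ3 was called lower, so that leaving out each library gave 0 to 1 lower. Over all genes, calls went from 0 to 20 higher and 43 lower without a filter, to 1 lower with the replicate block, and to 2 to 106 higher and 15 to 97 lower with each library left out in turn. A crossed block was added after seeing the data. It joined control replicate 1 with SWT replicate 2, and control replicate 2 with SWT replicate 1. That block gave 55 higher and 42 lower, and neither block called a potassium channel gene. The removal of length and GC trends was also added then. The median over tested channel genes, -0.067, was 0.099 without a filter, 0.080 with DESeq2 and 0 on the deposited log2 values (53 genes each), -0.13 with a mean count of at least 50 (7 genes), and -0.069 to 0.099 with each library left out. For 27 genes, the 20 tested channel genes and 7 of the other lists, 347 of 365 values kept direction and side of the threshold. KCNIP2 turned to 0.30 with limma-voom, and KCNN3 (0.12) to -0.41 with limma-voom and -0.013 with the replicate block. With each library left out, values ranged from -0.22 to 0.037 for KCNAB1, -0.18 to 0.11 for KCNAB2, -0.61 to 0.18 for KCNAB3, -0.99 to 1.49 for KCNIP2, -0.028 to 0.39 for KCNIP3, -0.069 to 0.23 for KCNJ14, -0.30 to 0.021 for KCNK2, -0.064 to 0.72 for KCNMB3, -0.023 to 0.052 for SLC12A4, -2.02 to 0.87 for KCNN3 and -0.33 to 0.013 for KCNT2. KCNJ3 ranged from -0.29 to -0.063. The cause of these changes was not tested. At 0.5 CPM in every library 21 genes were detected, against 16 at 1 CPM, and KCNN4 stood at 18.8 CPM per kilobase of exon union against 28.5. The 75 genes that were not tested had too few counts to pass the filter. Whether depth or absence of the transcript underlay this was not tested.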
